A study of Rattus norvegicus with 4 samples.

Results

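The levels of 10 genes of macrophages and other leukocytes were examined in glomeruli of rats with Adriamycin nephropathy. The genes were chosen by name, outside MHC class II and complement, and all 10 were found as single entries among the 13261 genes with usable values. They are Ptprc, which marks leukocytes in general; Csf1r, Cd68, Mrc1 and Lyz2, used as macrophage genes; the receptor adaptors Tyrobp and Fcer1g; the myeloid surface receptors Itgam and Cd14; and Cd3e, a T cell gene. With at least 1 log2 CPM (counts scaled to a common total per sample) in each sample as a filter on low values, 9 of the 10 passed, and Cd3e did not.

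The data come from 1 group of 4 male Wistar rat samples, of rats weighing 150 to 175 g, given Adriamycin (ADR, doxorubicin) by vein. ADR is an anthracycline that injures podocytes, the filtering epithelial cells of the glomerulus, and causes heavy proteinuria. The labels give no dose or age, and name day 11 or day 21 as the harvest without saying which applied here. Glomeruli were separated on sieves, a step that leaves leukocytes in the capillaries and removes tubule fragments incompletely. Animals without ADR were not analysed here, so no value below is a response to ADR; the comparisons are between samples of the 1 group. Nothing in the labels states that each sample is a different animal, and p-values describe the spread between these samples.

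Ptprc encodes CD45, a receptor tyrosine phosphatase carried by nucleated blood cells and needed for antigen receptor signalling. Tissue macrophages depend on the receptor encoded by Csf1r, which binds the growth factors CSF1 and IL-34. Tyrobp (DAP12) and Fcer1g (the Fc receptor gamma chain) are small transmembrane adaptors whose cytoplasmic ITAM motifs, once phosphorylated, recruit the kinase SYK. Cd3e carries an ITAM too and belongs to the T cell receptor complex. In the kidney, macrophages lie mostly between the tubules, and glomeruli hold resident and infiltrating leukocytes in their capillaries and mesangium.

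The 4 samples had 13566962 to 16207027 reads in the listed genes. Mitochondrial transcripts took 7.46%, 12.5%, 9.34% and 7.56% of reads in replicates 1 to 4. Among podocyte genes, Podxl (podocalyxin, of the podocyte surface coat) had 1842 to 2967 CPM and Magi2 10.2 to 47.0 CPM over the samples. With no other tissue to compare, these levels do not test the tissue label. Over all genes the median SD of the log2 values was 0.18. The 10 leukocyte genes summed to 460, 656, 794 and 752 CPM in replicates 1 to 4, of which Lyz2 alone gave 223, 342, 419 and 445 CPM. Their mean sum was 666 ± 148 CPM (SD, n = 4). They took 0.046% to 0.0794% of all reads. In whole tissue, fewer leukocytes and less leukocyte RNA per cell cannot be told apart.

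Replicate 1 was the lowest sample for 9 of the 10 genes, whereas over all genes it was the lowest for 35%. The exception was Mrc1, whose values in replicates 1 and 4 were nearly equal. Replicate 3 was the highest for 6 of the 10, against 29.6% of all genes. The 6 genes were Ptprc, Csf1r, Tyrobp, Fcer1g, Itgam and Cd3e. Fcer1g had its highest value in replicate 2 instead with trimmed-mean or median-of-ratios factors or with mitochondrial genes left out of the total, which made the count 5, against 24.2%, 24.1% and 28% of all genes under these 3 scalings. Cd68, Cd14 and Mrc1 were highest in replicate 2 and Lyz2 in replicate 4.

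Ptprc (ENSRNOG00000000655) had 656, 1071, 1658 and 1079 reads in replicates 1 to 4, or 48.4, 66.1, 108 and 70.8 CPM. Its mean was 6.14 ± 0.48 log2 CPM (SD, n = 4). Replicate 3 lay 2.23 times above replicate 1, and replicates 2 and 4 lay close together between them. The 95% exact Poisson intervals, which cover counting error only, ran from 44.7 to 52.2 CPM in replicate 1 and from 103 to 113 CPM in replicate 3. Neither overlapped the interval of any other sample.

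Among the macrophage genes, the growth factor receptor gene Csf1r (ENSRNOG00000018414) had 80.6, 98.9, 112 and 94.7 CPM. It kept the order of Ptprc at its ends, with replicate 1 lowest and replicate 3 highest, over a narrower range of 1.40-fold. Cd68 (ENSRNOG00000037563), which encodes a lysosomal glycoprotein of phagocytes, had 17.8, 22.5, 19.7 and 19.1 CPM. Its SD of 0.14 log2 was the smallest of the 10, and its highest sample exceeded its lowest by 1.27-fold. Mrc1 (ENSRNOG00000018251), the mannose receptor of tissue macrophages and some endothelia, had 20.1, 25.3, 24.8 and 19.9 CPM. Its samples thus formed 2 pairs, replicates 1 and 4 below replicates 2 and 3.

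Lyz2 (ENSRNOG00000005825) encodes lysozyme, an enzyme that cleaves bacterial cell walls and is made by macrophages and granulocytes. It had 3022, 5545, 6438 and 6790 reads, or 223, 342, 419 and 445 CPM, so that replicates 3 and 4 were both far above replicate 1. The mean was 8.43 ± 0.45 log2 CPM (SD, n = 4). The neighbouring lysozyme gene Lyc2, a close relative whose reads could be divided between both genes, had 263, 250, 306 and 266 reads and did not follow Lyz2. Its reads came to 8.70% of those of Lyz2 in replicate 1 and 3.92% in replicate 4.

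The adaptor gene Tyrobp (ENSRNOG00000020845) had 19.5, 32.0, 35.2 and 31.6 CPM in replicates 1 to 4. Replicate 1 stood well below the other 3, which lay close together. Fcer1g (ENSRNOG00000024159) had 27.0, 34.4, 35.1 and 34.5 CPM, the same picture over a smaller range. The difference of replicate 1 from the mean of the others was -0.76 log2 for Tyrobp and -0.36 log2 for Fcer1g.

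Itgam (ENSRNOG00000019728), the alpha chain of the complement receptor and integrin CD11b/CD18, had 8.55, 11.4, 14.7 and 11.7 CPM. As for Ptprc, replicate 1 was lowest and replicate 3 highest, with a highest-to-lowest ratio of 1.71. The Poisson intervals of replicates 2 and 4 overlapped, at 9.77 to 13.1 and 10.1 to 13.6 CPM. Cd14 (ENSRNOG00000017819), the coreceptor that hands lipopolysaccharide to TLR4, had 14.7, 22.2, 21.2 and 22.0 CPM. Replicates 2 to 4 lay close together, and the difference of replicate 1 from their mean was -0.56 log2. For Fcer1g and Cd14, 2 of the 10 genes, replicate 1 was an outlier under Dixon's test at the 95% level; 5.08% of all genes had such an outlier.

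Cd3e (ENSRNOG00000016069) had only 16, 24, 51 and 38 reads, or 1.18, 1.48, 3.32 and 2.49 CPM. Its mean of 0.99 ± 0.67 log2 CPM (SD, n = 4) had the largest SD of the 10. The Poisson interval was 0.674 to 1.92 CPM in replicate 1 and 2.47 to 4.37 CPM in replicate 3, and these did not overlap, but intervals of samples next to each other in level did.

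**Figure D1:**
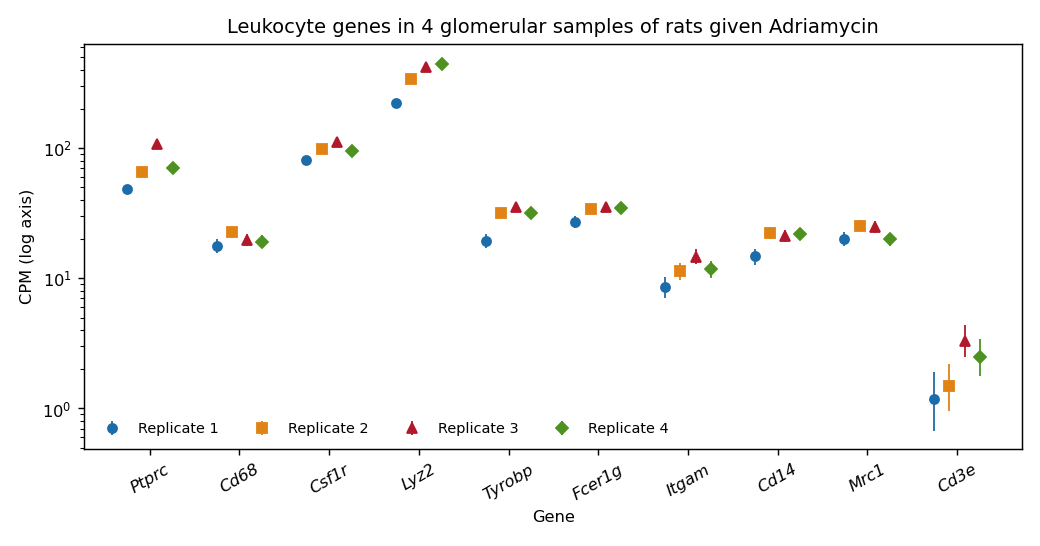
CPM (log axis) of the 10 genes in replicates 1 to 4, with 95% exact Poisson intervals as bars. The blue circle of replicate 1 is the lowest point of each gene except Mrc1, where replicate 4 at 19.9 CPM is just under replicate 1 at 20.1 CPM; the bars of Cd3e are wide because it rests on 16 to 51 reads.

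For Ptprc, Csf1r, Lyz2, Tyrobp, Fcer1g and Cd14, 6 of the 10 genes, the counting interval of replicate 1 lay wholly below those of the other 3 samples, against 8.33% of all genes. For Ptprc and Csf1r, 2 of the 10, the interval of replicate 3 lay wholly above the others, against 5.04% of all genes. The difference of replicate 1 from the mean of replicates 2 to 4 had a median of -0.55 log2 over the 10 genes and -0.02 over all genes. The difference ranged from -0.94 for Cd3e and -0.84 for Lyz2 to -0.21 for Mrc1 and -0.20 for Cd68.

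**Figure D2:**
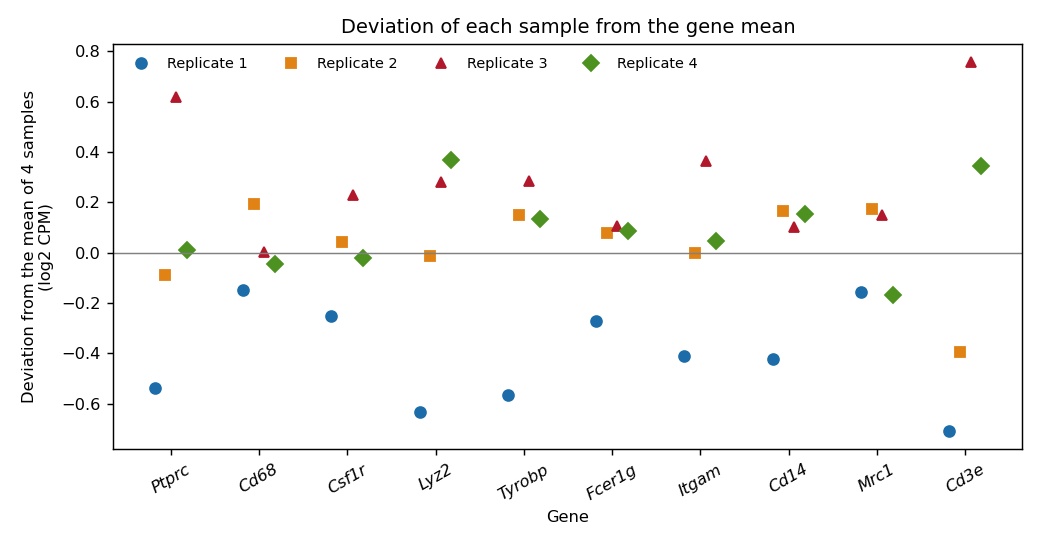
Deviation of each sample from the mean of 4 samples, in log2 CPM, for each of the 10 genes. Replicate 1 lies below 0 for all 10; replicate 3 reaches highest for Ptprc and Cd3e and sits close to 0 for Cd68.

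Variation beyond counting noise was tested with a chi-square index of dispersion on reads, adjusted by Benjamini-Hochberg over all genes. All 10 genes passed at an adjusted p under 0.05, as did 69.5% of all genes, so passing is common at this depth. Adjusted p-values ran from 1.196e-253 for Lyz2 and 5.854e-80 for Ptprc to 0.00140 for Mrc1 and 0.0387 for Cd68. Without replicate 1, 6 of the 10 passed, beside 55.2% of all genes. Fcer1g (adjusted p = 0.954), Cd14 (0.865), Tyrobp (0.235) and Cd68 (0.121) then did not pass, and Ptprc, Csf1r, Lyz2, Itgam, Mrc1 and Cd3e did.

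The second test asked whether a gene varied more than genes of like level, by the residual variance of log2(CPM + 1) against the abundance trend in limma. It called 0 of the 10 genes and 0% of all genes at an adjusted p under 0.05; the smallest adjusted p over all genes was 0.912. At an unadjusted p under 0.05 in limma, Ptprc and Lyz2 passed, 2 of the 10, against 5.47% of all genes. The median SD of the 10 genes on the same scale was 0.28, and that of all genes 0.17. The value of the 10 genes fell to 0.16 without replicate 1. The 0.17 of all genes rests on all 4 samples and is not the counterpart of that value.

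The proportions between the 10 genes were then compared. Within each sample, reads were divided by those of Ptprc, a ratio that does not depend on scaling between samples. In 8 of the other 9 genes this ratio was lowest in replicate 3, where Ptprc itself was highest; so it was for 94.6% of all other genes. For Cd68, Csf1r, Lyz2, Fcer1g and Cd14, 5 of the 9, the 95% exact (Clopper-Pearson) interval of replicate 3 lay below those of the other 3 samples, against 70.9% of all other genes. Neither count exceeds the share over all other genes, so neither is particular to the 9 genes.

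Cd68 had 0.367 reads per Ptprc read in replicate 1 (95% interval 0.316 to 0.426) and 0.183 in replicate 3 (0.161 to 0.207), with 0.341 and 0.270 in replicates 2 and 4. Mrc1 had 0.416, 0.383, 0.230 and 0.282, with the lower ratios in the same 2 samples, replicates 3 and 4. For Itgam the ratio was 0.177, 0.172, 0.136 and 0.166, the narrowest range of the 9 genes at 1.30-fold. Lyz2 stood apart from these, with 4.61, 5.18, 3.88 and 6.29 reads per Ptprc read and its highest ratio in replicate 4. Cd3e had the highest ratios in replicates 3 and 4, at 0.0308 and 0.0352, and 0.0244 and 0.0224 in replicates 1 and 2, with overlapping intervals.

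Dividing by Ptprc reduced the SD between samples for 4 of the 9 genes, which were Lyz2, Tyrobp, Itgam and Cd3e, against 7.87% of all other genes. It raised the SD of Cd68 from 0.14 to 0.45 log2. The median SD of the 9 log2 ratios was 0.30, beside 0.28 for their levels, and it was 0.16 without replicate 3. With the summed reads of 16 genes shared by most leukocytes as the reference, the SD was smaller than that of the level for 7 of the 9 genes, against 19.8% of all genes outside that reference, and the median over the 9 was 0.22.

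**Figure D3:**
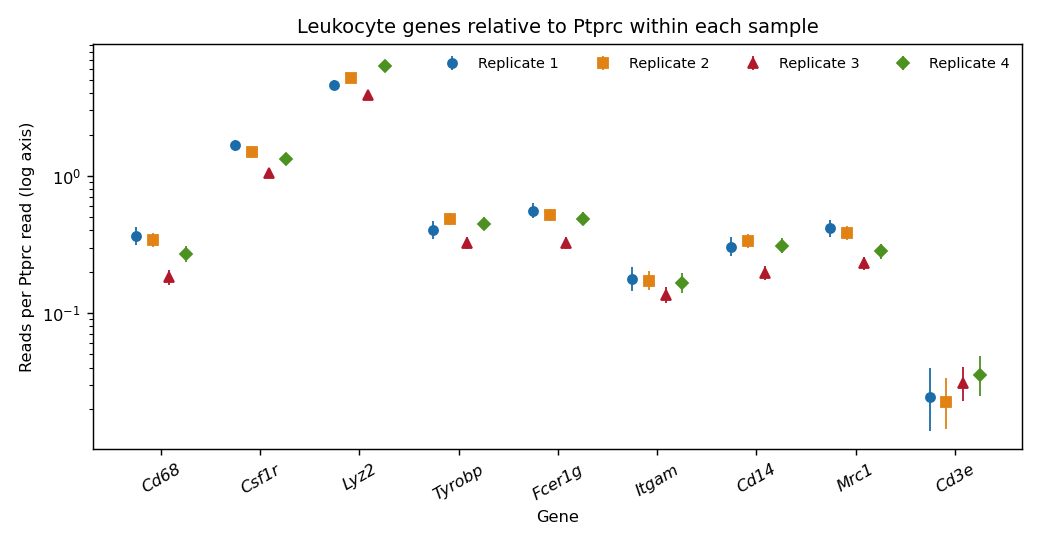
Reads of 9 genes per Ptprc read in each sample (log axis), with 95% exact intervals as bars. The red triangle of replicate 3 is the lowest point of each gene except Cd3e, as it is for 94.6% of all other genes; Cd68 goes from 0.367 in replicate 1 to 0.183 in replicate 3.

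Lists of related genes were then read in the same way. Of 18 genes active in most leukocytes, 16 had values; all 16 varied beyond counting noise, 14 were lowest in replicate 1 and 16 highest in replicate 3 (14 under trimmed-mean or median-of-ratios factors). Itgb2, the CD18 chain that pairs with the product of Itgam, had 39.1, 55.2, 88.4 and 63.4 CPM. Coro1a, a leukocyte actin regulator, had 56.2, 75.8, 121 and 85.9 CPM. Cd48 had 134, 136, 165 and 164 CPM, and Evi2b 4.94, 6.29, 9.45 and 7.74 CPM. Itgb2 and Coro1a were chosen after their values were seen, and both repeated the order of Ptprc.

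The mononuclear phagocyte list was less uniform. Of its 20 genes, 12 had values, 11 of which passed the chi-square test; 5 were lowest in replicate 1 and 5 highest in replicate 3 (4 under the other scalings tried). Adgre1, the F4/80 antigen, had 9.73, 15.3, 15.6 and 14.2 CPM, and Spi1, which encodes the myeloid transcription factor PU.1, had 17.2, 20.7, 29.2 and 23.0 CPM. Lgals3 (galectin-3), which injured epithelium can also make, had 16.4, 57.9, 34.9 and 41.8 CPM. Folr2 had 37, 98, 50 and 64 reads. Mertk, an engulfment receptor that other cell types share, had 570, 257, 392 and 550 CPM, a sample order that set replicate 2 lowest. Cx3cr1, the fractalkine receptor, had 8.53 to 9.84 CPM and did not pass the chi-square test (adjusted p = 0.696). The genes lowest in replicate 3 on the CPM scale were Siglec1, Msr1 and Gpnmb. Siglec1, the macrophage sialoadhesin, had 15.2, 16.0, 8.93 and 12.9 CPM. The scavenger receptor gene Msr1 had 72.2, 71.3, 61.4 and 70.1 CPM, and Gpnmb had 41.4, 58.2, 39.3 and 48.5 CPM. Aif1, which encodes the macrophage protein IBA1, had 19.8, 26.5, 21.6 and 17.6 CPM and, with Lyve1 and Cx3cr1, was lowest in replicate 4. Of this list, only Folr2 and Mertk were not named after their values were seen.

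Among genes that work with the adaptors Tyrobp and Fcer1g, 14 of 17 had values, 12 varied beyond counting noise, 13 were lowest in replicate 1 and 9 highest in replicate 3. Syk, the kinase recruited by ITAMs and named after its values were seen, had 23.1, 33.4, 45.3 and 32.3 CPM. Lyn, a Src family kinase that other cells also express, had 99.5, 105, 117 and 103 CPM, and Btk had 39, 55, 91 and 72 reads. The 4 Fc gamma receptor genes with values, close relatives whose reads could be divided between them, were named after their values were seen. The activating receptor gene Fcgr2a had 10.1, 19.6, 16.7 and 16.7 CPM, with the counting interval of replicate 1 below the others, and passed the chi-square test (adjusted p = 7.349e-09). The inhibitory receptor gene Fcgr2b had 10.0, 11.0, 13.4 and 8.92 CPM and passed too (adjusted p = 0.00336), with replicate 4 lowest. The activating receptor genes Fcgr1a and Fcgr3a had highest-to-lowest ratios of 1.31 and 1.22, both lowest in replicate 1, and did not pass (adjusted p = 0.0567 and 0.153).

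The genes for the ligands of Csf1r differed from each other in sample order. Csf1 had 190.4, 132, 146 and 215 CPM, with replicates 1 and 4 high, and Il34, named after its values were seen, had 407, 579, 532 and 565 reads, with its lowest CPM in replicate 1 as for Csf1r. Of the 8 ligand and signalling genes, all with values, 8 passed the chi-square test, 3 were lowest in replicate 1 and 2 highest in replicate 3. The lowest in mean CPM, Cbl, had 18.2, 12.8, 17.4 and 15.2 CPM.

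In the pathway of Cd14, 12 of 14 genes had values and 4 passed the chi-square test; 5 were lowest in replicate 1 and 5 highest in replicate 3. Their median SD was 0.16, near the 0.18 of all genes. Irak1, a kinase of many cell types, had 94.4 to 103 CPM and Ticam2 38 to 57 reads. Tlr4, the receptor that Cd14 serves, had 17.5, 14.7, 16.2 and 19.0 CPM, and Tlr2 had 6.63, 7.77, 13.1 and 12.1 CPM. Tlr4 and Tlr2 were chosen after their values were seen; Tlr4 had its lowest value in replicate 2 and its highest in replicate 4.

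T cell genes other than Cd3e had a median SD of 0.69 log2, beside 0.30 for the 10 genes. Of 16 listed, 6 had values; all 6 passed the chi-square test and were lowest in replicate 1, and 5 were highest in replicate 3 (4 under the other scalings tried). Cd8a, the cytotoxic coreceptor, named after its values were seen, had 43, 107, 148 and 114 reads. Cd4, which rat macrophages also express, had 21.9, 33.1, 31.1 and 26.3 CPM, and Cd6 had 14, 53, 51 and 41 reads. Of the 6 genes, 4 passed the filter on low values, and with a pseudocount of 1 the median SD of the 6 was 0.55 log2. The other 10 genes were not analysed here.

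B cell genes set replicate 3 furthest from the rest. Of 9 listed, 5 had values, and all 5 were lowest in replicate 1 and highest in replicate 3; 4 passed the chi-square test. The antigen receptor chains Cd79a and Cd79b, named after their values were seen, had 25, 31, 155 and 59 reads and 23, 45, 179 and 71 reads. Cd22 had 81, 159, 219 and 147 reads. Blk had 25, 32, 42 and 37 reads and did not pass (adjusted p = 0.382). The 5 genes summed to 12.3, 18.3, 44.2 and 22.7 CPM.

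For neutrophils, 3 of 11 genes had values. S100a9 had 33, 67, 231 and 326 reads and Csf3r, the G-CSF receptor gene named after its values were seen, 52, 124, 304 and 218 reads, both lowest in replicate 1 and high in replicates 3 and 4, the samples in which Lyz2 was highest. Mmp9, which other cells make as well, had 366, 40.9, 172 and 146 CPM, highest in replicate 1 and lowest in replicate 2. Of the 8 dendritic cell genes, 5 had values, 4 were lowest in replicate 1 and 3 highest in replicate 3. Zbtb46, which endothelium also expresses, had 61.6, 59.0, 80.3 and 54.2 CPM and Ccr7 had 30, 59, 80 and 44 reads. Prf1 had 120, 233, 285 and 173 reads and Klrk1 had 10.1, 11.0, 11.8 and 10.0 CPM, the 2 of 9 cytotoxic genes with values. Of the 8 mast cell genes only Kit, found in other cells too, had values, at 15.8, 21.2, 33.3 and 26.3 CPM. Over 9 lists, those of shared leukocyte, mononuclear phagocyte, T cell, B cell, cytotoxic, neutrophil, dendritic and mast cell genes and of the genes that work with the adaptors, 51 of 64 genes with values were lowest in replicate 1 and 47 highest in replicate 3, beside the 35% and 29.6% of all genes. The other pathway lists are not in this count: 3 of 8 genes around Csf1r and 5 of 12 around Cd14 were lowest in replicate 1.

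Marker genes of other cell types also differed between the same samples. The 11 podocyte genes were all highest in replicate 1 and all lowest in replicate 2, with summed levels of 8796, 4622, 6299 and 7596 CPM. The 10 proximal tubule genes were all lowest in replicate 3, and their sum was 7368, 5185, 3611 and 5586 CPM. The 9 endothelial genes with values, of 10 listed, summed to 6836, 7845, 8998 and 7525 CPM, 7 of them highest in replicate 3. Red cell genes, 7 with values of 10, summed to 1025, 1273, 1853 and 1309 CPM. As for Ptprc, replicate 1 was lowest and replicate 3 highest, with replicates 2 and 4 close together. Near-identical globin copies share reads. The mesangial list (8 of 9 genes) summed to 1871, 2014, 2048 and 2389 CPM and the distal nephron list (8 of 9) to 657, 504, 610 and 566 CPM. Within these lists the genes differed in sample order. Of the 8 mesangial genes, 4 were lowest in replicate 1 and 4 in replicate 2. Of the 8 distal genes, 4 were lowest in replicate 1, 2 in replicate 2 and 2 in replicate 4. The part of these differences, of blood cells and of the mitochondrial share in the leukocyte values was not tested.

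**Figure D4:**
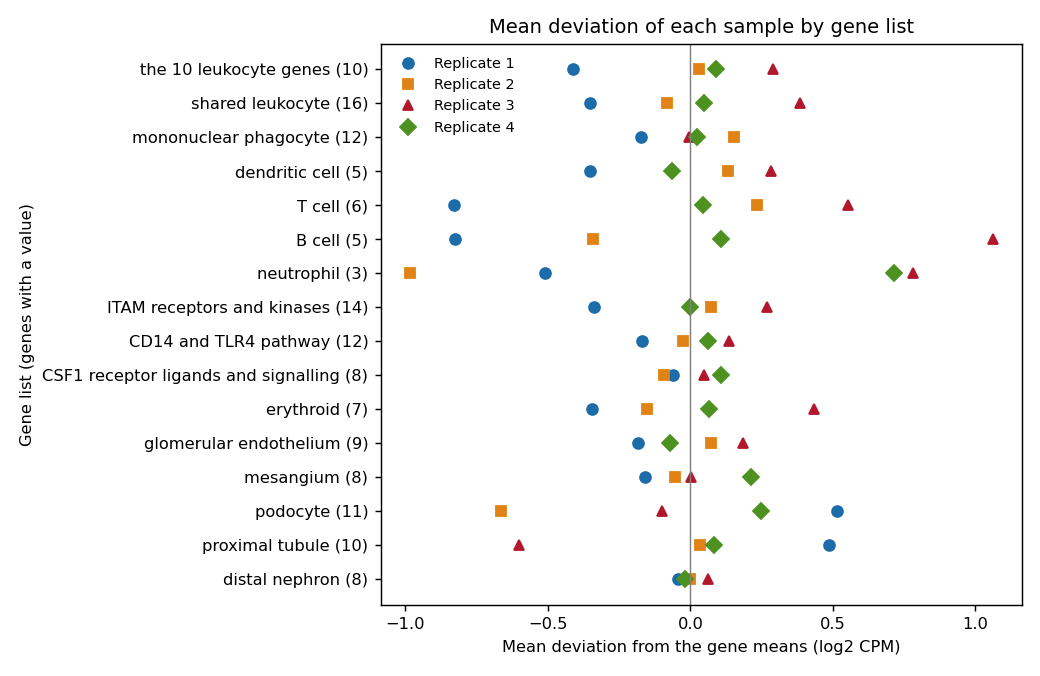
Mean deviation of each sample from the gene means, in log2 CPM, for the 10 leukocyte genes and 15 related lists, with the number of genes that had values. Replicate 1 is lowest for the 10 genes, at -0.41, and for the shared leukocyte list, at -0.35, and highest for podocyte and proximal tubule genes, at 0.52 and 0.49; replicate 3 is highest for B cell genes, at 1.06.

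The genes whose sample profile came closest to that of Ptprc, by the root mean square difference of centred log2 values over 4 samples, were AABR07017902.1 (0.01), Tbc1d10c (0.03) and Coro1a (0.04). Tbc1d10c had 68, 110, 164 and 110 reads and AABR07017902.1 had 35, 58, 88 and 58. Of the other 9 leukocyte genes, Itgam came closest to Ptprc (0.15), at rank 99 in nearness among all genes, and Cd68 was farthest (0.39). For Cd3e, the gene with the largest SD, the closest were Il1rn (0.09), Smarca2 (0.10) and LOC100910790 (0.10), and Ptprc was the closest of the 10, at 0.25. With 4 samples and 13260 genes to choose from, such likeness is a description.

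Promoter sequences are shown for Ptprc, for Itgam as the nearest to it in profile among the other 9 leukocyte genes, and for Cd68 and Cd3e as the genes with the smallest and the largest SD. They come from RefSeq (build GRCr8, which is not the build of the expression values) and end at the annotated gene start. Capitals mark GAGGAA, a core of sites bound by PU.1 and related ETS factors, or its reverse complement TTCCTC.

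Ptprc, chr13:52259811-52259996, minus strand: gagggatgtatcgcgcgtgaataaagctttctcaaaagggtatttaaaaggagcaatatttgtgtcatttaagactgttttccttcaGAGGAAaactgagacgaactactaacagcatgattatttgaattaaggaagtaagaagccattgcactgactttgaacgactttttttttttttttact

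Itgam, chr1:192089342-192089495, plus strand: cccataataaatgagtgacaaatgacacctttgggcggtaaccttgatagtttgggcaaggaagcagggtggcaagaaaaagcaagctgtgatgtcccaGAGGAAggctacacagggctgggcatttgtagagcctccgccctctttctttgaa

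Cd68, chr10:54882442-54882691, minus strand: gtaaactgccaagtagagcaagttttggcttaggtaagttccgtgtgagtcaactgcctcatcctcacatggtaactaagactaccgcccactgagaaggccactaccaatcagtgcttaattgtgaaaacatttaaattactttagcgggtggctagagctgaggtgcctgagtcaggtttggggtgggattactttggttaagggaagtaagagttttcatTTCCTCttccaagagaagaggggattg

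Cd3e, chr8:54211771-54212020, minus strand: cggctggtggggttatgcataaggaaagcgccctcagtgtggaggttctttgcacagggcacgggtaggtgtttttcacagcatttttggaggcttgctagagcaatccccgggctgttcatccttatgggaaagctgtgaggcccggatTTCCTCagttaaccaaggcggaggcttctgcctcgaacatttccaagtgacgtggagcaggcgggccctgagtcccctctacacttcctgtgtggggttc

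Each of the 4 stretches holds 1 match. RefSeq windows of 300 bases, from 250 before to 50 after the start that its table uses, were listed for 8 of the 10 genes, all but Tyrobp and Fcer1g. That start can lie within the annotated gene: 6 of the 8 windows had at least 100 bases before the gene, the window of Csf1r had 23, and that of Cd14 lay inside the gene. All 8 held the 6 letters on either strand, and so did 27.6% of all 33469 windows of that length. Not all matches lay before the gene: the 201 bases before Lyz2 held 0, and the matches of Cd14 lay inside the gene. The letters were chosen after these sequences had been read, so the count is a description, and a match is not a site.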

How the data were processed

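Poly(A) RNA of 4 glomerular samples was sequenced. HISAT2, featureCounts, Subread and limma and the build Rnor_6.0 are named in the submitters' processing notes, with no roles; strand use in counting and the low-count filter are not given in the sources used here. The deposited log2 values were found to equal log2 CPM with 0.5 reads added: in each column all values fell within 0.01 of a whole number of reads. CPM here are those reads over each sample's total. Of 13265 rows, 4 with displaced cells were left out, and 0 value columns belonged to no sample. With 1 group, levels, SDs, counting intervals (95%) and 2 tests were computed across all genes: a chi-square index of dispersion on reads (3 degrees of freedom), and limma 3.58.1 (R 4.3.3, intercept only, abundance trend, pseudocount 1) on log2(CPM + 1), each with Benjamini-Hochberg adjustment at 0.05. On simulated data for 13261 genes, reads were recovered for 100% of values and the chi-square test called 0 genes under Poisson sampling. In simulated data limma's test called 100% of genes changed 4-fold and 26% of those changed 2-fold in 1 sample. In the real samples it called neither Mmp9 nor S100a9, with highest-to-lowest ratios of 8.94 and 8.79 (limma adjusted p = 0.912 for both). The simulated rates therefore do not give the power of limma's test on these samples.

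Genes named are the 10 leukocyte genes, the genes with the highest and lowest mean CPM of each leukocyte and pathway list, the 3 genes nearest to Ptprc and to the gene with the largest SD, and listed genes in which 1 sample stood apart; others are marked as chosen after their values were seen. Lyc2 is named as a close relative of Lyz2. For kidney cell types and red cells, list sums are given in place of single genes, except for Podxl and Magi2, the podocyte genes with the highest and lowest mean CPM. The 10 genes and all lists were chosen with earlier results of these data known. Of 197 other listed genes, 137 had values as single entries; 1 more listed gene is not reported here. No transcript lengths were used. Apart from the choice of genes by mean CPM within a list, levels are therefore not compared between genes. For the same reason the planned order by level per coding length was not made. The planned protein comparison was not made, because no protein sequences were used. Counts of samples with the lowest value were added after the data were seen.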

Additional observations from a re-analysis of the deposited data

Results flagged for a closer look

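Of 174 values checked (levels of listed genes, list sums and ratios to Ptprc), 3 had 1 sample set apart from the other 3, by a ratio of gap to range above Dixon's 95% critical value; chance gives 1 in 20, or 8.7. Over all genes 5.08% met the criterion. In each of the 3 the sample apart was replicate 1, which was low. For Fcer1g the ratio was 0.924, with 27.0 CPM against 34.4 to 35.1 CPM. For Cd14 it was 0.891, with 14.7 CPM against 21.2 to 22.2 CPM. For Itgax, the CD11c integrin chain of dendritic cells and macrophages, it was 0.839, with 16.4 CPM against 24.0 to 25.8 CPM.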

How the results depend on the processing

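Of 133 recomputed values, 130 stayed within their criterion: 1 SD for levels and sums, which leaving out 1 of 4 samples or averaged scaling factors could not exceed, and 1.5 times for numbers of genes and for median SDs. The 3 others were leave-one-out values. The number of the 10 genes beyond counting noise was 10, and 6 to 10 with 1 replicate left out, the 6 without replicate 1. With 1 replicate left out, 55.2% to 65.4% of all genes passed. The median SD of the 10 genes, 0.28, ran from 0.16 (without replicate 1) to 0.33. That of the log2 ratios to Ptprc, 0.30, ran from 0.16 (without replicate 3) to 0.36. The number lowest in replicate 1 was 9 under the 3 other scalings tried. The excess-variance test called 0 of the 10 under each of 11 alternatives, with 1 or 2 at an unadjusted p under 0.05. Cd3e, on 16 to 51 reads, was limited most by depth. No paired analysis was possible because the samples form 1 group.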
